A study of Mus musculus with 6 samples.

Results

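The 9 genes described here encode complement components and regulators, and they were taken by symbol from the 54446 gene identifiers of a count table of mouse intestine. They are the initiators C1ra, C4b and C2, the central component C3, the alternative pathway genes Cfb and Cfp, and the regulators Cfi, Serping1 and Cd55. The 3 chains of C1q were not among them and are given with the rest of the pathway. All 9 were found, and all 9 passed the filter on low counts, which left 19176 genes to test.

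Intestine of wild-type mice was sequenced from 3 samples labelled control and 3 labelled NEC, for necrotizing enterocolitis, all taken at 96 h. Control mice were dam-fed and had neither hypoxia nor cold stress. NEC mice were gavaged at 4-h intervals with 40 µl of 33% Esbilac formula, and every 12 h they were kept for 100 s in 99.9% nitrogen and then for 10 min at 4 °C, so the groups differ in diet, hypoxia and cold together. The strain, age, sex and intestinal segment are not named in the sources at hand. No label states that the samples are separate animals, and the p-values below therefore reflect sample-to-sample spread that may be technical.

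Complement is a cascade of plasma and tissue proteins that marks microbes and damaged cells for removal. The classical and lectin pathways cleave C4 and C2 to form a convertase that splits C3, and the alternative pathway amplifies that step with factor B. Regulators such as factor I, C1 inhibitor and CD55 shut the convertases or their activating proteases down. Most circulating complement is made by the liver, and intestinal epithelial, stromal and myeloid cells also make several components.

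Total counts ran from 69441184 to 106304239 per library, and the 9 genes together took 0.0599% to 0.0855% of them. The summed epithelial markers, led by Epcam and Krt8, lay between 5145 and 6958 CPM (counts scaled to a common library size with TMM factors) in all 6 libraries, so epithelium was present in each. The labels' sample codes start with AG181017 in control replicates 1 and 2 and NEC replicates 2 and 3, and with AG181028 in control replicate 3 and NEC replicate 1. What the codes stand for is not given. Xist, transcribed in females, reached 179 CPM in control replicate 1 and 344 CPM in control replicate 2, with at most 1.17 CPM elsewhere. The Y-linked Ddx3y was at 1.29 CPM in control replicate 2 and at 19.8 to 44.8 CPM in the others, so control replicate 1 held both transcripts. All NEC libraries and control replicate 3 held Ddx3y with little Xist, so sex by these transcripts was not balanced between the groups. NEC replicate 2 stood apart in stromal and mesothelial markers, whose values are given with C3 below.

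None of the 9 genes passed edgeR's quasi-likelihood test at an adjusted p below 0.05, a threshold passed by 0.704% of all genes tested. At an unadjusted p below 0.05 stood 5 of the 9, beside 15.6% of all genes tested. They were C1ra, C4b, C3 and Serping1 with higher values in NEC, beside 7.61% of all genes, and Cfi with lower ones, beside 7.99%. DESeq2 called 4 of the 9, beside 7.59% of the genes it tested, with C4b, C3 and Serping1 higher (3.66% of genes) and Cfi lower (3.94%). In a simulation of this design, with counts drawn with edgeR's own dispersions, DESeq2 exceeded its nominal error rate. Such counts cannot settle how DESeq2 errs on the deposited ones. The limma-voom test called 0 of the 9, beside 0.735% of all genes. Groups did not overlap for 4 of the 9, C4b and C3 above the controls and Cfi and Cfb below them, beside 22.4% of all genes. The median log2 fold change of the 9 was 0.70, with 5 positive and 4 negative, against 0.026 over all genes tested, of which 9954 were positive. Leaving out NEC replicate 2 brought that median to 0.34, and leaving out NEC replicate 1 brought it to 1.07. As these are bulk samples, more cells of a type and more RNA per cell cannot be told apart.

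**Figure D1:**
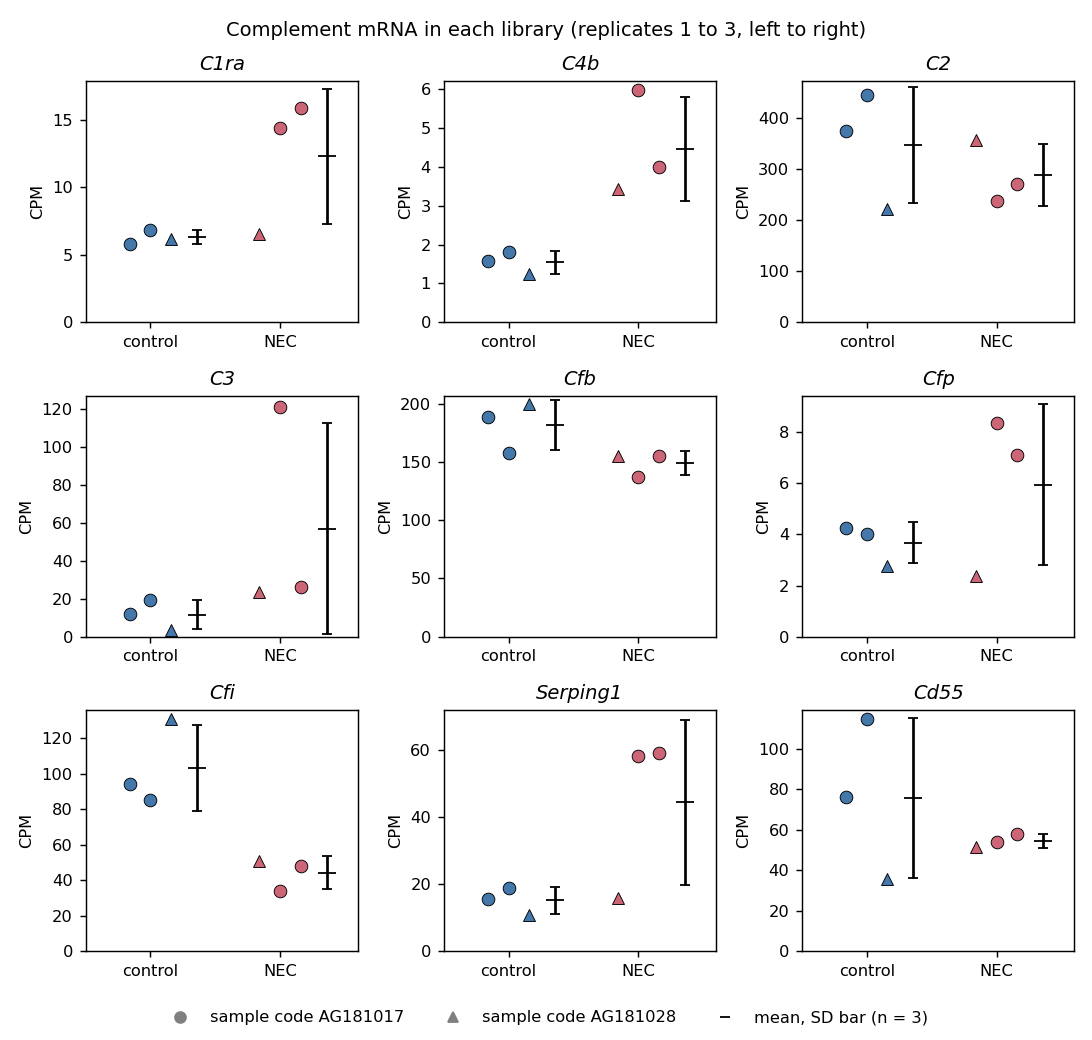
CPM of the 9 complement genes in each library, controls in blue and NEC in red, with circles for sample code AG181017, triangles for AG181028, and the mean with an SD bar (n = 3) to the right of each group. The NEC points of C4b and C3 lie above all control points and those of Cfi and Cfb below them. The NEC triangles of C1ra and Serping1 lie inside the control range, at 6.57 and 16.001 CPM, and that of Cfp, at 2.37 CPM, lies below all controls.

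The initiating components had fold changes of both signs. C1ra, which encodes the C1r protease that activates C1s (ENSMUSG00000055172, chromosome 6, 124512405 to 124523443, plus strand, mm10), gave 5.83, 6.85 and 6.19 CPM in the controls, replicates 1 to 3 in that order here and below, and 6.57, 14.4 and 15.9 CPM in the NEC libraries. NEC replicate 1 lay inside the control range and the other two NEC libraries lay well above it. The log2 fold change was 0.97 (SE 0.37, 95% interval 0.10 to 1.83, edgeR adjusted p = 0.272). C1rb, a neighbouring copy, shares 26.3% of the 150-base stretches of C1ra transcripts, so reads there could be assigned to either gene, and C1rb itself averaged 0.532 CPM in the controls against 0.849 CPM in the NEC libraries.

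C4b, which encodes complement C4 (ENSMUSG00000073418, chromosome 17, 34728380 to 34743882, minus strand), stood at 1.57, 1.81 and 1.24 CPM in the controls and at 3.43, 5.98 and 4.01 CPM in the NEC libraries. Every NEC library lay above every control library. The log2 fold change was 1.54 (SE 0.38, 95% interval 0.66 to 2.42, edgeR adjusted p = 0.114), and DESeq2 gave an adjusted p of 0.00214. The near copy C4a shares 7.48% of the 150-base stretches of C4b, and summing the counts of both genes gave 1.45 (SE 0.35). NEC over control was 2.96 within the AG181017 samples and 2.77 within the AG181028 pair.

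C2, the protease that joins C4b in the classical convertase (ENSMUSG00000024371, chromosome 17, 34862604 to 34898265, minus strand), stood at 373, 444 and 222 CPM in the controls and at 356, 237 and 271 CPM in the NEC libraries. The groups overlapped, and the log2 fold change was -0.27 (SE 0.32, 95% interval -1.002 to 0.47, edgeR adjusted p = 0.750). Its direction differed between the sample codes, with NEC over control at 0.622 within AG181017 and at 1.603 within the AG181028 pair, which has 1 library per group. This difference was not tested.

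C3, the protein on which all activation routes converge (ENSMUSG00000024164, chromosome 17, 57203970 to 57228136, minus strand), had the largest fold change of the 9 and the widest spread. It stood at 11.7, 19.2 and 3.73 CPM in the controls and at 23.6, 121 and 26.1 CPM in the NEC libraries. Every NEC library lay above every control library, by a narrow gap from control replicate 2 to NEC replicate 1, and NEC replicate 2 lay far above the other NEC libraries. The log2 fold change was 2.30 (SE 0.80, 95% interval 0.45 to 4.16, edgeR adjusted p = 0.232), and DESeq2 gave an adjusted p of 0.0271. Without NEC replicate 2 it was 1.10 (SE 0.61, edgeR adjusted p = 0.409).

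In NEC replicate 2 the summed markers of other cell types were also high. The 8 fibroblast markers, led by Col3a1 and Col1a2, summed to 1956 CPM there, against 501 to 956 CPM in the other 5 libraries, and 6 of the 8 had positive log2 fold changes. The 4 mesothelial markers, led by Msln and Upk3b, summed to 68.1 CPM there. They summed to 8.47 and 13.3 CPM in NEC replicates 1 and 3 and to 11.3, 15.7 and 2.53 CPM in the controls. The 5 smooth muscle markers, led by Tagln and Acta2, summed to 2608 CPM in NEC replicate 2 and to 635 to 1663 CPM elsewhere. The 7 neutrophil markers, led by S100a8 and S100a9, summed to 0.422 to 1.59 CPM in control and to 2.67, 25.5 and 7.04 CPM in NEC, and the neutrophil-defining Ly6g was at 0 in every library. S100a8 and S100a9 made up most of the NEC sums, at 11.7 and 12.1 CPM in NEC replicate 2, and of the 4 tested Csf3r had a negative log2 fold change, -0.90 (SE 0.80). Their part in the C3 result was not tested.

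**Figure D2:**
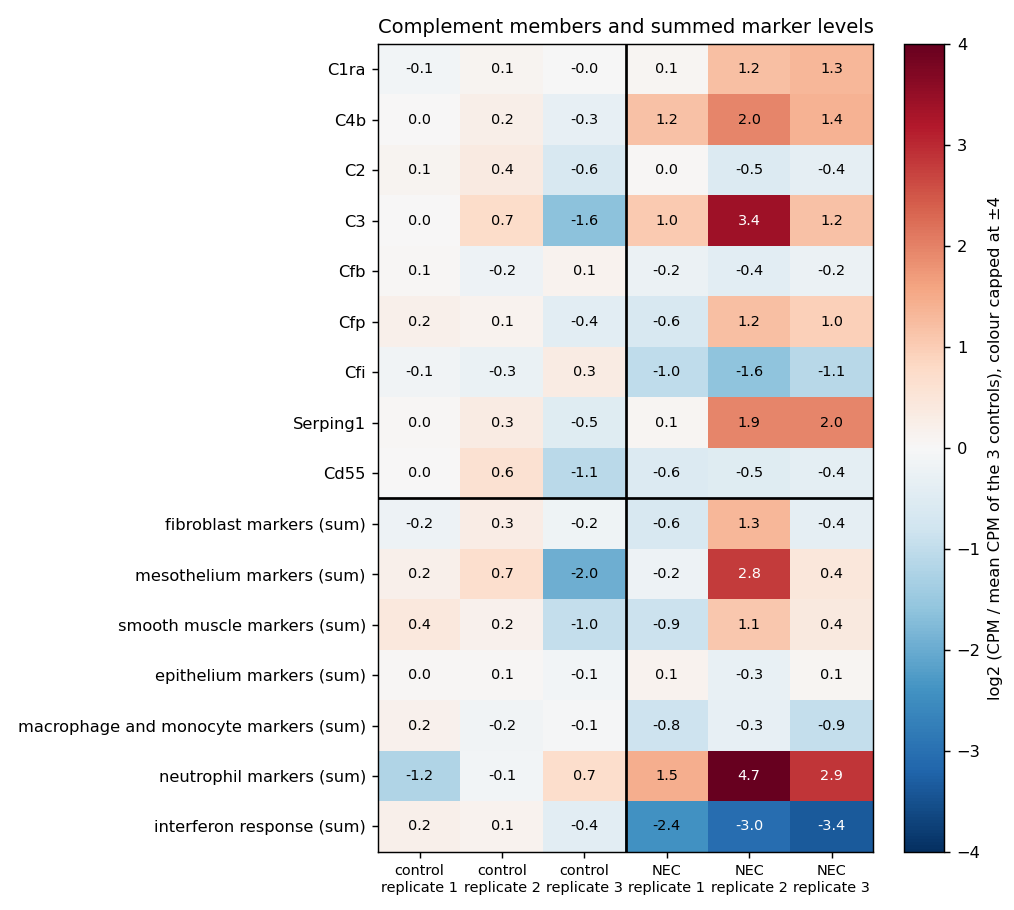
Log2 ratio of CPM to the mean of the 3 controls in each library (columns), for the 9 complement genes (upper rows) and for summed marker lists (lower rows), with blue below and red above the control mean. NEC replicate 2 has the highest value of C3, at 3.4, and also of the fibroblast (1.3), mesothelial (2.8) and neutrophil (4.7) sums, while the interferon response sum is at -2.4 to -3.4 in all NEC libraries.

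Start-site sequence was held for 4 of the 9 genes in a RefSeq table (GRCm38.p6), and the 250 bases before the start are shown for C3, with the largest fold change, and for Cd55, whose groups overlapped. Both start sites are also the gene ends in GENCODE M21. Capitals mark the match to a C/EBP motif (TTGCNNAA, either strand), the recognition sequence of CCAAT/enhancer-binding proteins. The windows are chr17:57228137-57228386 and chr1:130462745-130462994, both on the minus strand, written 5′ to 3′.
C3: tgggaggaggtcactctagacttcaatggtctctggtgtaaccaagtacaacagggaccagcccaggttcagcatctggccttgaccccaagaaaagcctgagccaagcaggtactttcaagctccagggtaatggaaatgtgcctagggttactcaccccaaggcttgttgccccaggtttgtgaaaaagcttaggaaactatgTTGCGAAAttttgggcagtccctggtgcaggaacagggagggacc
Cd55: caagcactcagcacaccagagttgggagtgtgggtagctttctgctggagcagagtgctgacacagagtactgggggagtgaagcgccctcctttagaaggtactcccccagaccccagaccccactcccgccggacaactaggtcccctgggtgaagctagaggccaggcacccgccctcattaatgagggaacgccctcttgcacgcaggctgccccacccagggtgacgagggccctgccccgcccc
The C3 match starts 45 bases before the start site. This motif is present in 9.56% of all 32851 windows of that length. No match was found in the windows of Cd55, C1ra or Cfp. The C1ra window (chr6:124512371-124512620) differs, as its RefSeq start lies inside the GENCODE gene, which begins at 124512405. Most of that window is therefore within the gene. An interferon-stimulated response element (GAAANNGAA, in 7.13% of windows), a STAT-binding GAS element (TTCNNNGAA, 7.02%) and an NF-kB motif (GGNNTTTCC, 4.93%) were searched on both strands too, with no match in these 4 windows.

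Of the alternative pathway genes, Cfb was abundant and Cfp was scarce. Cfb, the protease of the alternative C3 convertase (ENSMUSG00000090231, chromosome 17, 34856374 to 34862518, minus strand), stood at 189, 158 and 199 CPM in the controls and at 155, 137 and 155 CPM in the NEC libraries. The NEC libraries lay below the controls by a small margin, and the log2 fold change was -0.29 (SE 0.21, 95% interval -0.78 to 0.21, edgeR adjusted p = 0.580). Cfp, which encodes the convertase stabiliser properdin (ENSMUSG00000001128, chromosome X, 20925454 to 20931555, minus strand), stood at 4.24, 4.01 and 2.75 CPM in the controls and at 2.37, 8.35 and 7.08 CPM in the NEC libraries. NEC replicate 1 had the lowest value of all 6 libraries and the other two NEC libraries the highest, so the groups overlapped. Its log2 fold change was 0.70 (SE 0.49, edgeR adjusted p = 0.558), and it was 0.34 without NEC replicate 2. NEC over control was 1.87 within the AG181017 samples and 0.863 within the AG181028 pair, and this difference was not tested.

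Among the regulators, Cfi and Serping1 had values that went in opposite directions. Cfi encodes factor I, the protease that cuts C3b and C4b into inactive forms (ENSMUSG00000058952, chromosome 3, 129835884 to 129875332, plus strand), and it had the smallest p of the 9. It stood at 94.0, 85.3 and 131 CPM in the controls and at 50.9, 33.7 and 47.9 CPM in the NEC libraries. All NEC libraries lay below all controls, and NEC over control was 0.455 within the AG181017 samples and 0.389 within the AG181028 pair. The log2 fold change was -1.23 (SE 0.27, 95% interval -1.85 to -0.60, edgeR adjusted p = 0.0947), and DESeq2 gave an adjusted p of 0.00411. With 1 library left out it ran from -1.35 to -1.03.

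The 3 genes whose centred log2 CPM over the 6 libraries lay closest to that of Cfi, of 10101 named genes with a mean of at least 5 CPM, were Fam84b, Trim31 and Zscan26. Their Euclidean distances to it were 0.380, 0.393 and 0.401. Trim31, which encodes a ubiquitin ligase, averaged 46.2 CPM in the controls against 19.4 CPM in the NEC libraries, with an edgeR adjusted p of 0.0571.

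Serping1 encodes C1 inhibitor, which blocks C1r, C1s and the MASP proteases (ENSMUSG00000023224, chromosome 2, 84765387 to 84775444, minus strand). It stood at 15.6, 19.0 and 10.9 CPM in the controls and at 16.001, 58.1 and 59.0 CPM in the NEC libraries. As for C1ra, NEC replicate 1 lay inside the control range and the other two NEC libraries lay far above it. The log2 fold change was 1.55 (SE 0.50, 95% interval 0.40 to 2.70, edgeR adjusted p = 0.202), and DESeq2 gave an adjusted p of 0.0386. NEC over control was 3.39 within the AG181017 samples, with an edgeR adjusted p of 0.105, and 1.47 within the AG181028 pair. The summed fibroblast markers were at 501, 1956 and 607 CPM in NEC replicates 1 to 3 and at 678 to 956 CPM in control, and their part in the Serping1 values was not tested.

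Cd55 encodes decay-accelerating factor, a membrane protein that splits the convertases (ENSMUSG00000026399, chromosome 1, 130439027 to 130462744, minus strand). It stood at 76.0, 115 and 35.7 CPM in the controls and at 51.2, 54.1 and 58.0 CPM in the NEC libraries. The NEC libraries lay close together inside the wide control range, and the log2 fold change was -0.47 (SE 0.39, 95% interval -1.38 to 0.44, edgeR adjusted p = 0.628). Without control replicate 2 the value was -0.039. As for C2, the direction differed between the sample codes, with NEC over control at 0.588 within AG181017 and at 1.435 within the AG181028 pair. This difference was not tested. The copy Cd55b was at 0 in every library and took no counts.

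**Figure D3:**
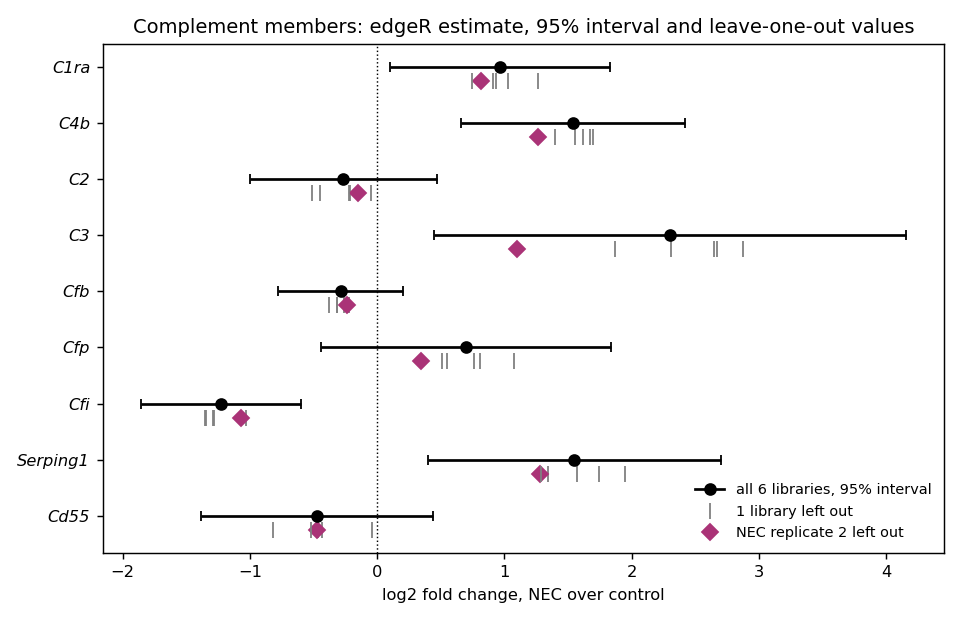
Log2 fold change of NEC over control for the 9 genes (black points, edgeR, with 95% intervals), with the values after leaving out each library in grey and without NEC replicate 2 as diamonds. Intervals of C2, Cfb, Cfp and Cd55 include 0, and C3 moves from 2.30 to 1.10 without NEC replicate 2.

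Levels of the 9 genes were compared as CPM per kilobase of exon sequence (FPKM, on exon lengths of GENCODE M21). In control the order of mean FPKM was C2 at 89.4 ± 29.3, Cfb at 64.4 ± 7.63, Cfi at 46.6 ± 10.9 and Cd55 at 15.6 ± 8.14 (SD, n = 3). Serping1 followed at 6.52 ± 1.75, C3 at 2.25 ± 1.503, Cfp at 2.11 ± 0.462, C1ra at 2.11 ± 0.174 and C4b at 0.270 ± 0.0506 FPKM. Library values overlapped between the neighbours C2 and Cfb, Cfb and Cfi, Cd55 and Serping1, C3 and Cfp, and Cfp and C1ra. Within the single control libraries Cfb was above Cfi in 3 of 3 and Cd55 above Serping1 in 3 of 3. C2 was above Cfb in 2 of 3, C3 above Cfp in 1 of 3 and Cfp above C1ra in 2 of 3, so for these 3 pairs the order was not the same in every library. The mean level of C2 in control was thus 331 times that of C4b, its partner in the classical convertase. The means of C2 and C4b were closer in NEC, at 74.4 and 0.785 FPKM. In NEC Serping1, at 19.1 ± 10.6 FPKM, had a higher mean than Cd55, at 11.2 ± 0.700, and C3 reached 11.1 ± 10.8, with overlapping library values, while C2 and Cfb kept the leading places and C4b the last. Cfi, at 19.9 ± 4.13, could not be ordered against Serping1, being higher in only 1 of the 3 NEC libraries.

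The levels of C2 and Cfb carry a limit of annotation. Gm20547, a read-through gene model on the same strand, covers 79.5% of the exonic bases of Cfb and 42.8% of those of C2, and it had 0 counts in every library. How reads in the shared exons were assigned is not given, so these FPKM values may be too low.

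**Figure D4:**
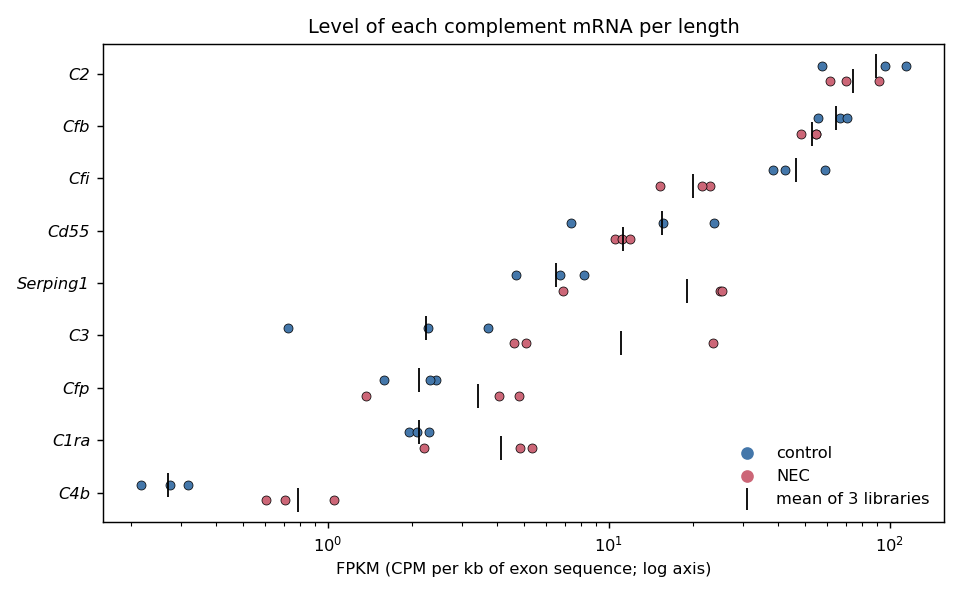
FPKM of the 9 genes on a log axis, with 1 point per library (control blue, NEC red) and a bar at each group's mean. C2 and Cfb are the highest in both groups, Cfi overlaps with Serping1 in NEC, and C4b, at 0.270 FPKM in control and 0.785 in NEC, is the lowest.

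The rest of the pathway was read from a list of 50 further complement genes, of which 38 passed the filter on low counts and 12 did not. Of the 38, 0 rose and 1 fell by edgeR's test, beside 0.261% and 0.443% of all genes, and 7 had an unadjusted p below 0.05, beside 15.6% of all genes. Their median log2 fold change was 0.11, with 22 positive and 16 negative.

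The gene that fell was Mbl2, which encodes a mannose-binding lectin that recognises microbial sugars. It stood at 5.75, 1.06 and 3.91 CPM in the controls and at 0.147, 0.158 and 0.230 CPM in the NEC libraries (log2 fold change -4.32, SE 0.71, edgeR adjusted p = 0.0480). The groups were far apart, and the call ended when any library other than control replicate 2 was left out, with adjusted p from 0.0933 to 0.225. Mbl2 is known to be expressed in liver, though its reads here need not come from liver. The summed liver markers were at 247, 40.5 and 367 CPM in control and 39.3, 17.3 and 19.9 CPM in NEC, led by Serpina1a. The liver-defining Alb was at 0.177, 0.201 and 25.9 CPM in the controls and at 21.8, 0.181 and 0.172 CPM in the NEC libraries. Serpina1a was at 239, 18.4 and 330 CPM in the controls and at 5.67, 3.88 and 16.005 CPM in the NEC libraries. Of 6 liver markers tested 1 had a positive and 5 a negative log2 fold change, and their part in the Mbl2 result was not tested.

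In the classical and lectin group the median log2 fold change was 0.66, and it was above 0 for 11 of 13 tested genes, beside 9954 of all 19176. The group summed to 113, 97.3 and 88.9 CPM in the controls and to 70.6, 238 and 148 CPM in the NEC libraries, so NEC replicate 1 was the lowest of the 6. For 0 of the 13 genes did every NEC library lie above every control, beside 10.8% of all genes. C1qa and C1qc, chains of the recognition molecule C1q made largely by macrophages, stood at 21.5, 16.5 and 19.6 and at 23.0, 18.7 and 16.8 CPM in control. In NEC they stood at 17.9, 34.3 and 35.7 and at 16.5, 40.9 and 39.6 CPM, so, as for C1ra and Serping1, NEC replicate 1 lay at control level. Their log2 fold changes were 0.61 (SE 0.31) and 0.73 (SE 0.37), with edgeR adjusted p of 0.405 and 0.395. The summed macrophage and monocyte markers, led by Csf1r and Cd68, were at 290 to 368 CPM in control and 168 to 257 CPM in NEC. Csf1r carried that sum, averaging 278 CPM in control and 130 CPM in NEC, whereas Cd68 was higher in every NEC library, at 11.6, 12.5 and 7.90 CPM against 26.8, 25.9 and 26.8. Neither passed edgeR's test (adjusted p of 0.0919 and 0.0773), 6 of the 8 markers had positive log2 fold changes, and their part in the C1q values was not tested. Fcna, which encodes a ficolin, had a log2 fold change of 2.70 (SE 0.91, edgeR adjusted p = 0.221). It stood at 0.327, 0.848 and 0.323 CPM in the controls and at 0.703, 7.37 and 1.67 CPM in the NEC libraries.

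In the alternative pathway group, Cfhr2 had a log2 fold change of -2.33 (SE 0.87, edgeR adjusted p = 0.261), and its groups overlapped. Terminal components, which build the membrane attack complex, were scarce, and all 7 together summed to 5.47 to 17.4 CPM. Of these, C8g stood at 11.3, 7.49 and 9.71 CPM in the controls and at 3.39, 6.003 and 4.30 CPM in the NEC libraries, and C8b at 0.981, 0.345 and 4.34 and at 0.126, 0.158 and 0.287 CPM. Neither passed edgeR's test, with adjusted p of 0.196 and 0.163, though all NEC libraries lay below all controls for each.

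Of the 12 further regulators tested, 4 had positive and 8 negative values. Clu, which encodes the fluid-phase inhibitor clusterin, had a log2 fold change of 0.97 (SE 0.40) and the membrane cofactor gene Cd46 one of -0.92 (SE 0.35), with edgeR adjusted p of 0.299 and 0.267. Cr1l, which encodes the rodent membrane regulator Crry, had the highest mean CPM of the 50, though not the highest level per length (5.53 FPKM in control against 18.5 for C1qa). It stood at 57.3 ± 4.54 CPM in the controls against 53.6 ± 4.07 CPM in the NEC libraries (SD, n = 3). Its log2 fold change was -0.096, with a 95% interval of -0.56 to 0.37. Of 6 receptor genes tested 0 passed, beside 0.704% of all genes, and those with the smallest p were Itgax (log2 fold change -1.15, SE 0.49) and the C5a receptor gene C5ar1 (1.06, SE 0.69).

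**Figure D5:**
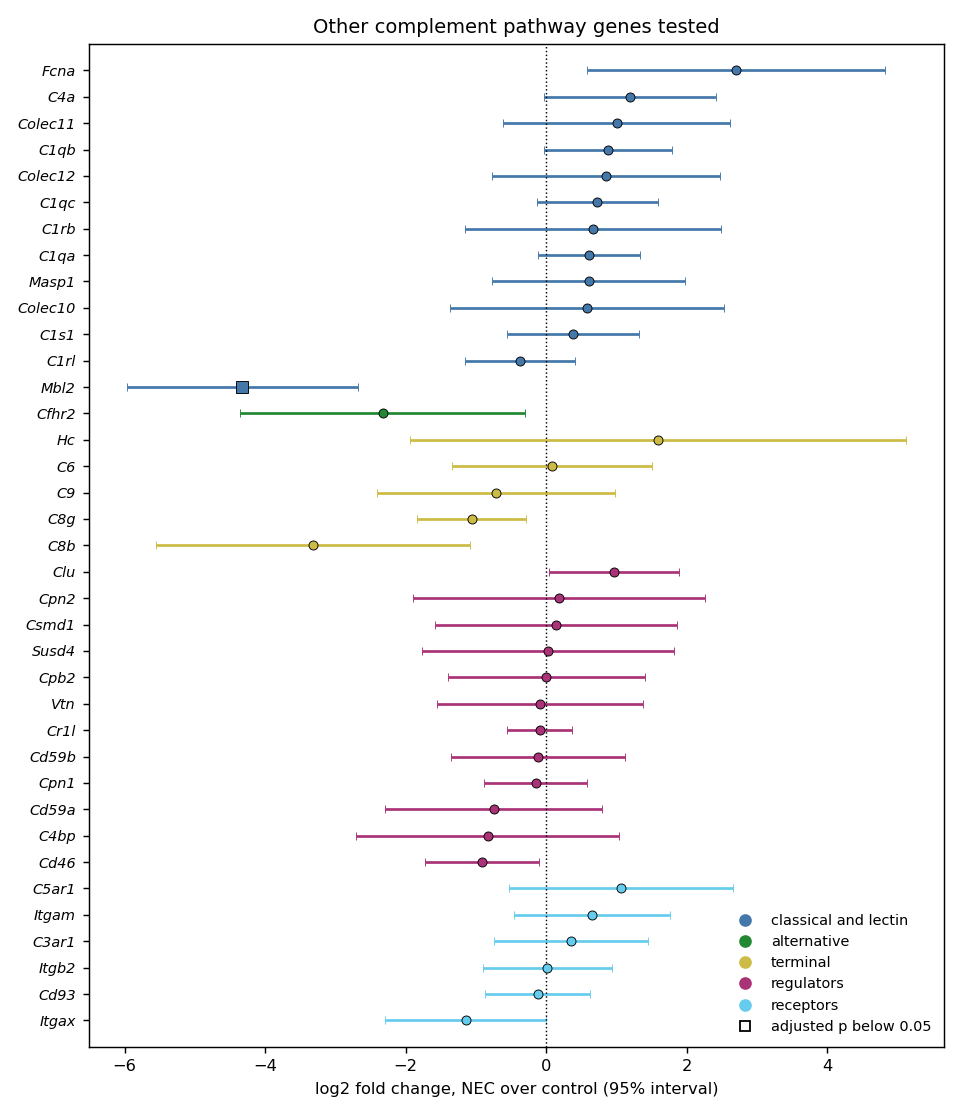
Log2 fold change of NEC over control with 95% intervals for 37 of the 38 other complement genes tested, coloured by role, with a square for the gene at an edgeR adjusted p below 0.05. Mbl2, at -4.32, is the only square, and 11 of the 13 classical and lectin genes lie to the right of 0.

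Several complement genes, among them C2, Cfb, C4b and Serping1, are known to be inducible by interferon, so a list of 21 inducers and signalling genes was read beside them. Of 18 tested, 0 rose and 2 fell, beside 0.261% and 0.443% of all genes. Irf1, a transcription factor of the interferon response, stood at 244, 181 and 213 CPM in the controls and at 56.7, 38.3 and 69.1 CPM in the NEC libraries (log2 fold change -1.96, SE 0.29, edgeR adjusted p = 0.0396). Irf7 had a log2 fold change of -1.97 (SE 0.29, edgeR adjusted p = 0.0396). With 1 library left out the adjusted p of Irf1 ran from 0.0535 to 0.222 and that of Irf7 from 0.0343 to 0.222. The 10 interferon response genes, led by Ifit1, summed to 902 to 1398 CPM in control and 118 to 226 CPM in NEC. In the same libraries the log2 fold changes of C2 and Cfb were -0.27 and -0.29, and those of C4b and Serping1 were 1.54 and 1.55. None of these 4 passed edgeR's test, and a link between them and the interferon genes was not tested. Cebpd, named here after its values were seen, encodes a C/EBP factor of the acute phase response. It stood at 5.55, 7.07 and 9.36 CPM in the controls and at 33.4, 21.7 and 58.7 CPM in the NEC libraries (edgeR adjusted p = 0.0562). Cebpb, the other C/EBP gene of the list and also named after its values were seen, averaged 61.8 CPM in control and 42.2 CPM in NEC. Its groups overlapped, with a log2 fold change of -0.55 (SE 0.37, edgeR adjusted p = 0.539). The part of either gene in the C3 values was not tested. Il1b, also named after its values were seen, encodes an inflammatory cytokine and was scarce, at 0.123, 0.230 and 0.0760 CPM in the controls and at 0.336, 2.35 and 1.35 CPM in the NEC libraries. Every NEC library lay above every control, with a log2 difference of 3.24 (SE 0.84, edgeR adjusted p = 0.129). The cytokine gene Tnf, with overlapping groups, had one of 0.33 (SE 1.25). The cytokine genes Il6, Ifng and Ifnb1 did not pass the filter on low counts.

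The remaining marker lists were read over the same libraries. The 6 endothelial markers, led by Pecam1 and Kdr, summed to 73.8 to 165 CPM in control and 77.4 to 134 CPM in NEC. The 4 B cell markers, led by Cd79b and Ms4a1, summed to 0.970 to 6.51 and 1.55 to 2.44 CPM, and the 4 T cell markers, led by Trac and Cd3d, to 2.57 to 18.7 and 1.44 to 2.35 CPM. Trac carried the T cell difference, with a mean of 11.004 CPM in control and 0.582 CPM in NEC (edgeR adjusted p = 0.0607), while Cd3d averaged 0.541 and 0.790 CPM and Cd3g 0.789 and 0.494 CPM.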

How the data were processed

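Gene counts came from 1 table deposited by the authors, as whole numbers for 6 samples, on mm10 per the submitters' processing notes. For the aligner, counter, annotation and strand setting the sources used here give no entry, so reads of overlapping or near-identical genes may be split or shared. Of 54446 identifiers 54409 matched a GENCODE M21 symbol, 37 did not, and 29684 had counts. Counts of 8, 12, 16 and 20 were 1.99 times as frequent as their neighbours, so totals may overstate the fragments sequenced. No replicates agreed within sampling noise.

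Genes kept by filterByExpr (minimum count 10) numbered 19176. Libraries were scaled by TMM, and NEC was compared with control, 3 samples each, by edgeR 4.0.16 (R 4.3.3) with glmQLFit (robust=TRUE), glmQLFTest and Benjamini-Hochberg adjustment over all genes, called at an adjusted p below 0.05. SE is that of the log2 fold change, which is positive where NEC is higher, and values ± are SD. Procedures were tested on simulated counts drawn with edgeR's own dispersions. There DESeq2 alone went past the limit set on false calls, and that limit was looser than the nominal error rate. That limit, first set for every tool, was kept for edgeR and limma-voom only after this was seen. Alternatives were other scalings and filters, DESeq2 1.42.0, limma-voom (limma 3.58.1), robust=FALSE, the replicate number or the sample code as a term, the AG181017 samples alone, summed copies and each library left out.

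The members and lists were chosen with earlier results of these data known. Named beyond the 9 members were called genes, the 2 with the smallest p in each complement role, those averaging at least 20 CPM, the 3 inducers with the smallest p, the 2 most abundant genes of each marker list, and the 3 genes closest in pattern to Cfi, by log2 CPM with a prior count of 2. The interferon-response and NF-kB patterns were shortened by 1 letter after a first search of the promoters, which also had no match. Values of 2 genes that this rule names are not reported here, though the counts include them.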

Additional observations from a re-analysis of the deposited data

How the results depend on the processing

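All 155 values of the 9 members under the alternatives, 54 of them with 1 library left out, kept the sign reported. The AG181028 pair, with 1 library per group, was not fitted alone. Within it NEC over control was 1.603 for C2, 1.435 for Cd55 and 0.863 for Cfp, opposite to the sign reported, and the other members kept theirs. By adjusted p, 4 of the 155 crossed the threshold, all with DESeq2, which called 3 members higher and 1 lower, and 1 higher and 3 lower among the other complement genes. On simulated counts drawn with edgeR's dispersions DESeq2 exceeded its nominal error rate, which cannot settle its rate on the deposited counts. The number of other complement genes lower, 1 here, was 0 with upper quartile scaling, limma-voom, the replicate block or the AG181017 samples alone, and 0 to 1 with 1 library left out.

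Over all genes, 50 were higher and 85 lower. These counts were 99 and 148 with no low-count filter, 699 and 753 with DESeq2, 16 and 38 with the replicate block, 88 and 155 with the sample code as a term, and 7 and 18 in the AG181017 samples alone. With 1 library left out they ran from 0 to 57 higher and 0 to 80 lower, and both together came to 0, 106 and 25 when control replicate 1, 2 or 3 was dropped and to 34, 101 and 3 when NEC replicate 1, 2 or 3 was dropped.

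Deviations from the group mean correlated at -0.15, 0.41 and -0.026 between same-numbered samples. The highest value, 0.49, joined control replicate 3 and NEC replicate 1, both AG181028. So few correlations cannot settle whether the numbers pair the samples. The block gave Cfi -1.22 and C3 2.17, with edgeR adjusted p of 0.102 and 0.0962, and called 0 members. With the sample code as a term edgeR adjusted p was 0.0512 for Cfi, 0.0718 for C4b, 0.0734 for Serping1 and 0.0833 for C3. It was at least 0.190 for the rest, and 0 members were called. The lowest count of a member in any library was 115, in C4b. As totals may overstate the fragments sequenced, the part of counting error in the spread of C4b was not tested.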
